A study of Arabidopsis thaliana with 6 samples.

Results

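Short constitutive internal exons of Arabidopsis thaliana were examined in seedlings of a prmt5 mutant and of the wild type (WT). The exons were chosen by annotation alone: an exon bin of the deposited table entered if it carried no alternative splicing event, was at most 50 bases long and was neither the first nor the last bin of its locus. This gave 5534 bins in 3960 loci, out of 158089 exon bins in 22493 loci, and out of 99347 constitutive internal bins. The other 93813 constitutive internal bins were longer than 50 bases.

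The mutant group held 3 libraries of plants carrying a prmt5 mutation in the Col-0 ecotype. The WT group held 3 libraries of Col-0 plants. The labels name no allele, so whether the mutation removes the protein is not given in the sources used here. Both groups were whole plants, labelled as a pool of tissues, and were stratified for 4 days at 4 °C. They were grown on agarose medium in continuous white light at 22 °C and harvested at 9 days. PRMT5 is an arginine methyltransferase whose known substrates include the Sm proteins of the spliceosome. The design compares the transcriptomes of the prmt5 mutant and WT. Polyadenylated RNA was sequenced, and reads were counted over genes, exon bins, introns and splice junctions.

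A very short exon poses a particular problem for splicing. The spliceosome usually recognises an exon by contacts across it between the factors at its acceptor, the 3' splice site of the intron before, and its donor, the 5' splice site of the intron after, and these factors crowd each other when the exon is small. Plant genes nevertheless hold microexons that are conserved between related genes, among them the mini-exon of plant acid invertases that encodes part of a conserved sugar-binding motif, and short exons inside the AP2 domain of AP2 transcription factors.

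Gene counts summed to between 41465842 and 67300273 in the prmt5 libraries and between 38564256 and 75461631 in the WT libraries. Junction counts summed to between 13928464 and 22536022 in prmt5 and between 12590920 and 25006774 in WT. PRMT5 itself, listed as SKB1 (AT4G31120), had 34.7, 28.8 and 33.2 CPM in prmt5 and 30.2, 28.6 and 31.05 CPM in WT. CPM are counts per 1e6 of the library size after TMM normalization. The level of PRMT5 was not called by edgeR (log2 change 0.11, SE 0.07, adjusted p 0.30). Its splicing set the genotypes apart: an unannotated junction from 15132629 to 15132732 on chromosome 4 had 11, 10 and 27 counts in prmt5 and 0 in each WT library (edgeR adjusted p 2.0e-09), and the annotated one from 15132629 to 15132725 had 5, 3 and 17 counts in prmt5 and 104, 83 and 116 in WT (edgeR adjusted p 0.0019). Markers of leaf and root were both abundant, with 3 leaf genes summing to 24705 to 28164 CPM in prmt5 and 26863 to 30029 CPM in WT, and 3 root genes summing to 1835 to 2342 CPM in prmt5 and 2091 to 2446 CPM in WT. The 3 dry seed genes summed to 0 to 0.0291 CPM in prmt5 and 0.241 to 0.772 CPM in WT, and the 3 flower genes to 0.336 to 0.567 CPM in prmt5 and 0.513 to 0.938 CPM in WT. The libraries of each genotype are separate samples by their labels, but nothing states that they came from separate cultures, so p-values measure the spread between these samples.

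Most of the short bins were complete exons. A bin with an intron directly on both sides was taken as a whole exon, and 4903 of the 5534 bins (88.6%) were of this kind, while 631 lay directly next to another exon bin or a retained-intron bin. Of these 631, 476 match an internal exon of RefSeq in start and end and 155 match none. The short bins' median length was 42 bases, and 3175 bins were 41 to 50 bases long, 1527 were 31 to 40, 604 were 21 to 30, 155 were 11 to 20 and 73 were 1 to 10. Of the bins just inside the length limit, 373 were 49 and 355 were 50 bases long, and just outside it 553 were 51 and 364 were 52 bases long. The coding region as annotated by RefSeq (TAIR10.1) contained 5115 of them (92.4%). Among whole coding exons, 37.4% of 4631 short ones had a length that is a multiple of 3, and thus keeps the reading frame if the exon is skipped, against 45.8% of 82648 longer ones. Their borders followed the usual rule: AG preceded 99.8% and GT followed 98.8% of the short whole exons, against 99.9% and 99.0% of the longer ones. Of the 20 bases before the exon, with the last 3 left out, pyrimidines made up 65.8% for short whole exons and 62.7% for longer ones. These shares describe the annotation, and no test of the differences was made.

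**Figure D1:**
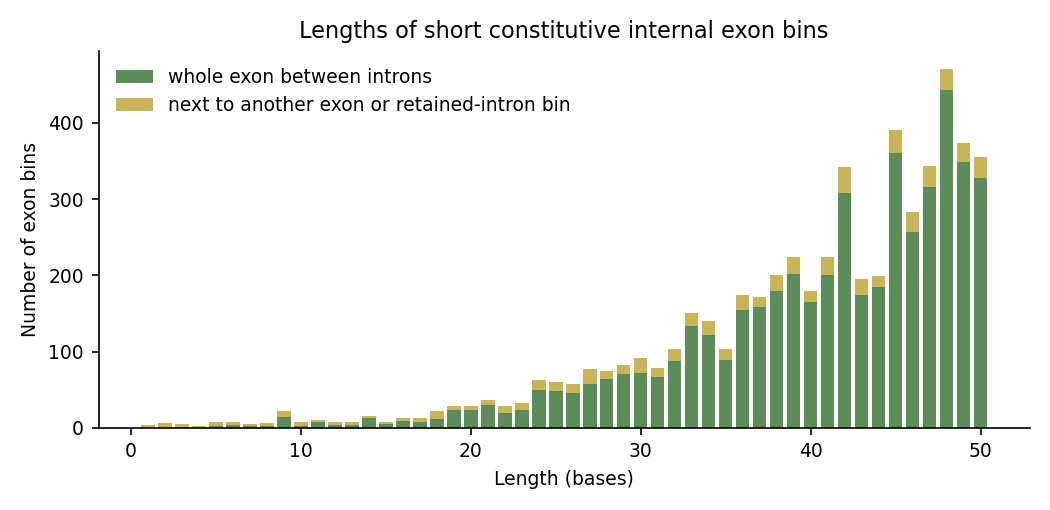
Lengths of the 5534 short constitutive internal exon bins. The horizontal axis gives the length in bases and the vertical axis the number of bins, with whole exons between introns in green and bins next to another exon or retained-intron bin in yellow. Most bins are 41 to 50 bases long, and the shortest whole exon has 3 bases.

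The smallest whole exons with enough counts to test are shown because they mark the lower limit of length among the whole constitutive internal exons tested. In all sequences that follow, the exon is in capitals and the flanking 20 bases of each intron are in lower case, read 5' to 3' on the strand of the gene, from RefSeq TAIR10.1. Where the bin adjoins another exon bin or a retained-intron bin of the deposited table, the bases printed in lower case on that side are those of that bin, and this is said. The smallest whole exons were chosen after their values were seen, since the smallest bins by the naming rule have 1 or 2 bases, adjoin other bins and match no RefSeq internal exon.
PBS2 (RAR1, a co-chaperone of disease resistance proteins; chr5:21002302-21002344, minus strand): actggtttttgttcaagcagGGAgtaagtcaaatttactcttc
RecQl3 (a DNA helicase; chr4:16938267-16938310, plus strand): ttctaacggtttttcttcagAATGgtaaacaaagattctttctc
AT1G63290 (chr1:23473140-23473184, minus strand): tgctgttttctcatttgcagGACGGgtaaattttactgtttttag
AT3G01850 (chr3:301474-301518, minus strand): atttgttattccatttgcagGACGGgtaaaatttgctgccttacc
AT1G02305 (a cysteine proteinase; its locus overlaps AT1G02310; chr1:456737-456781, plus strand): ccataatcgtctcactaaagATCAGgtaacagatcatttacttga
NF-YB8 (a histone-fold transcription factor subunit; chr2:15577050-15577095, plus strand): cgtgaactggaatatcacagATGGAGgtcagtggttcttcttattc
NF-YB10 (chr3:19775343-19775388, minus strand): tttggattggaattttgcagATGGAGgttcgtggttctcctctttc
AT5G14030 (a translocon-associated protein; chr5:4528016-4528061, plus strand): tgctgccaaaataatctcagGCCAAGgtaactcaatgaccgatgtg

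The 9-base exons of the invertase family are shown because all 4 invertase genes that hold a short exon hold one of this length. Their 4 sequences were all distinct, and 7 of the 9 positions were the same in all of them.
ATBETAFRUCT4 (vacuolar invertase; chr1:4154410-4154458, plus strand): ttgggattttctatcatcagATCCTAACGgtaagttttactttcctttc
AT1G62660 (chr1:23200623-23200671, plus strand): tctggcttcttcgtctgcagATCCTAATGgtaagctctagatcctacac
cwINV4 (chr2:15176885-15176933, minus strand): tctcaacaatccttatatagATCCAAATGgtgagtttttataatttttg
cwINV6 (chr5:3839831-3839879, plus strand): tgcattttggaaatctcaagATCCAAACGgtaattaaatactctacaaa

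Exons of the AP2 family are shown because 16 of its 18 listed genes hold short exons, 25 in all, of only 5 lengths: 10 exons of 9 bases, 6 of 26, 6 of 31, 2 of 45 and 1 of 47. Any pair of 26-base exons was identical at 20 to 24 positions, with 19 positions the same in all 6, and any pair of 31-base exons at 20 to 28 positions. The 9-base exons matched the last 9 bases of the 26-base exons at 5 to 9 positions, with a median of 7 over 60 pairs. The first 3 of the next lines are 26-base exons, the following 3 are 31-base exons, and the last 3 are 9-base exons.
AP2 (floral homeotic factor; chr4:17401514-17401579, plus strand): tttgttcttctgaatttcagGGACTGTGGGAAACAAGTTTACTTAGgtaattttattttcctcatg
SNZ (floral repressor SCHNARCHZAPFEN; chr2:16390427-16390492, minus strand): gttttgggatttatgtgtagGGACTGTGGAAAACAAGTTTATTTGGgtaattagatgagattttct
TOE2 (floral repressor; chr5:24208803-24208868, plus strand): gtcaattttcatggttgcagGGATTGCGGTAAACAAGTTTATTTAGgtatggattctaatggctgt
AP2 (chr4:17401626-17401696, plus strand): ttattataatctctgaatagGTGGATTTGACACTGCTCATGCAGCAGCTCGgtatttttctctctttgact
SNZ (chr2:16390254-16390324, minus strand): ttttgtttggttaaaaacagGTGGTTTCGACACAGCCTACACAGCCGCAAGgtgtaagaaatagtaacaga
TOE2 (chr5:24208918-24208988, plus strand): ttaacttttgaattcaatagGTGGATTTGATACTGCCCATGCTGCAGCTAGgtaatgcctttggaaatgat
ANT (AINTEGUMENTA, a regulator of organ growth; chr4:17741086-17741134, plus strand): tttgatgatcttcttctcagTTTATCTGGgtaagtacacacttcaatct
ADAP (preceded by a retained-intron bin; chr1:5509127-5509175, plus strand): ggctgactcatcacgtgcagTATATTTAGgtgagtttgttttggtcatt
PLT1 (PLETHORA1, a root stem cell regulator; chr3:7301685-7301733, plus strand): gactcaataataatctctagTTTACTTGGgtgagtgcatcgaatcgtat

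The first comparison asked whether the short exons were used at the same rate relative to their gene in both genotypes. Exon usage is the count of the bin as a percent of the count of its gene in the same library. Of 4656 short exons tested with edgeR's quasi-likelihood test, 4 (0.0859%) passed an adjusted p under 0.05 (Benjamini-Hochberg over 127078 bins), against 0.124% of all bins tested. They were 2 higher and 2 lower in prmt5, and over all bins 0.0763% were higher and 0.0472% lower. At an unadjusted p under 0.05, 135 short exons (2.9%) stood out, against 3.61% of all bins. The median log2 change was -0.01 for the short exons and -0.01 for all bins, and the central 90% of the short exons lay between -0.30 and 0.29, against -0.29 and 0.29 for all bins. Of the 4656, 16 had a change of at least 1 on the log2 scale in either direction. The bins not tested had low counts, and 446 had no count in any library. The number called was 2 without prmt5 replicate 3 and 6 without WT replicate 2. With library size in place of the gene count it was 551 (11.8%), against 13.8% of all bins called in that fit, which also counts changes of the whole gene.

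**Figure D2:**
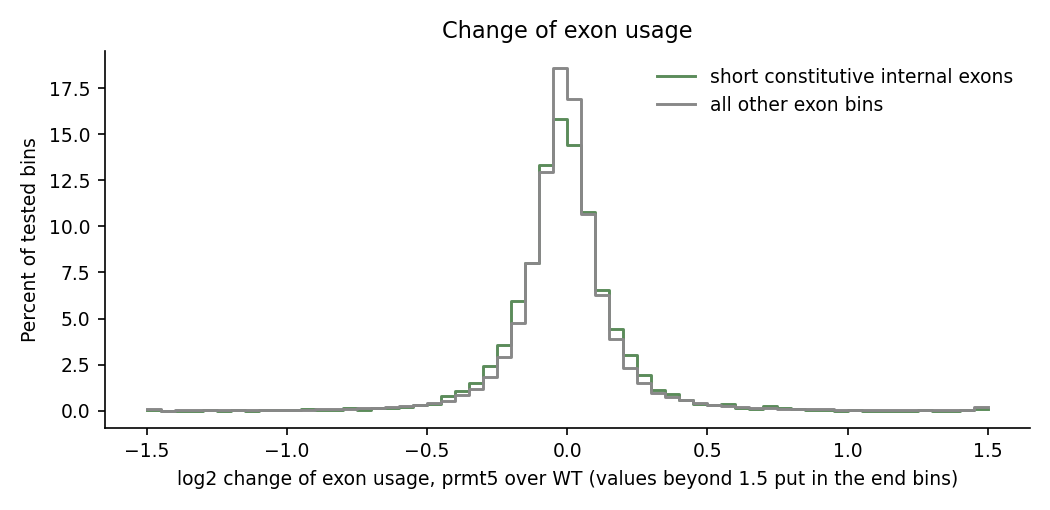
Change of exon usage. The horizontal axis is the log2 change of the bin-to-gene ratio, prmt5 over WT, with values beyond 1.5 placed in the end bins, and the vertical axis is the percent of tested bins, for 4656 short constitutive internal exons (green) and 122422 other exon bins (grey). Both distributions centre on 0 (medians of -0.01 each) and cover nearly the same range.

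The members with lower usage were in AT3G25840 and AT5G50310. AT3G25840 encodes a protein kinase superfamily protein, and its 49-base exon lies outside the coding region near the 3' end (chr3:9452135-9452183, minus strand). It had 24, 8 and 31 counts in prmt5 and 162, 126 and 201 in WT, which is 0.475, 0.193 and 0.430% of the gene count in prmt5 and 3.05, 4.34 and 3.56% in WT. All prmt5 libraries were below all WT libraries, with means of 0.366 ± 0.151% and 3.65 ± 0.647% (SD, n = 3 each; log2 change -3.23, SE 0.24, edgeR adjusted p 5.7e-04). The bins next to it moved with it, at log2 changes of -3.49 and -3.29. This value is uncertain, because the exon has an exact copy on the same strand at chr3:9443872-9443920 and every 50-base stretch that overlaps it occurs elsewhere in the genome. It was the only one of 77 named short exons with such a repeat.

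AT5G50310 encodes a kelch repeat protein and held 2 called exons that moved in opposite directions. They are shown because the break between the raised and the lowered bins lies between them.
AT5G50310, 47-base exon (chr5:20475475-20475561, plus strand): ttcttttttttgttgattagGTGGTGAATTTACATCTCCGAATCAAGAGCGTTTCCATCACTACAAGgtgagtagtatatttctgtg
AT5G50310, 43-base exon (chr5:20476508-20476590, plus strand): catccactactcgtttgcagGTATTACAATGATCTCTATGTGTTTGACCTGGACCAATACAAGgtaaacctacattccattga
The 47-base exon had 50, 31 and 65 counts in prmt5 and 195, 85 and 201 in WT, or 25.9, 19.8 and 22.6% of the gene count in prmt5 and 6.69, 4.79 and 6.29% in WT. Relative to the gene it was higher in all prmt5 libraries (22.8 ± 3.08% in prmt5 and 5.93 ± 1.00% in WT, SD, n = 3 each; log2 change 1.92, SE 0.18, edgeR adjusted p 0.0028), although its raw counts were lower in prmt5. Set against library size in place of the gene count it was lower in prmt5 (log2 change -1.58), and the call on usage was lost without prmt5 replicate 3 (adjusted p 0.061). The 43-base exon had 0, 0 and 1 counts in prmt5 and 162, 81 and 154 in WT. Its rate per gene count in prmt5 was 0.0312 of that in WT on that single count, with an exact 95% counting interval of 0.000787 to 0.175 (edgeR adjusted p 0.018). This call was lost without WT replicate 3 (adjusted p 0.087) and without prmt5 replicate 1, 2 or 3 (adjusted p 0.13, 0.15 and 0.20), and with the replicate number as a block (adjusted p 0.17). The whole gene fell in prmt5 (log2 change -3.52, edgeR adjusted p 1.1e-09). Its 6 first bins summed to 315, 257 and 486 counts in prmt5 and 1406, 605 and 1410 in WT, and the 14 later bins to 42, 13 and 32 counts in prmt5 and 4121, 2683 and 4524 in WT. The usage values of both exons thus move with a gene count that fell unevenly along the gene, whose part in the calls was not tested, and without this gene 2 of the 4 calls were left.

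The remaining member with higher usage was a 12-base bin of AT4G04340 (chr4:2122896-2122907, plus strand), the gene of the calcium channel OSCA1, which opens under osmotic stress. It had 67, 76 and 93 counts in prmt5 and 12, 3 and 10 in WT, or 0.933, 1.16 and 0.847% of the gene count in prmt5 and 0.118, 0.0745 and 0.107% in WT. All prmt5 libraries were above all WT libraries (0.981 ± 0.163% in prmt5 and 0.09996 ± 0.0227% in WT, SD, n = 3 each; log2 change 3.18, SE 0.25, edgeR adjusted p 8.2e-04). This bin is not a whole exon: it lies upstream of the coding region between external bins and runs into one of 210 bases with 212, 230 and 275 counts in prmt5 and 53, 16 and 40 in WT (log2 change 2.68). The 4 calls therefore comprise 1 exon with an exact copy elsewhere, 2 exons of a gene that fell unevenly and 1 bin that adjoins external bins.

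DESeq2 called 9 short exons in usage (0.193%; 0.23% of all bins), the same 4 and 5 more. AT1G56500, a haloacid dehalogenase-like hydrolase, held 2 of these, a 50-base and a 37-base exon with 2.08 ± 0.331% and 2.57 ± 0.265% of the gene count in prmt5 and 3.37 ± 0.266% and 4.06 ± 0.590% in WT (SD, n = 3 each), and both had lower values in every prmt5 library than in any WT library. Their log2 changes were -0.67 and -0.65, with adjusted p of 0.017 and 0.019 in DESeq2 and 0.14 and 0.19 in edgeR. A 9-base exon of AT2G33435, an RNA-binding protein gene, had 24, 23 and 33 counts in prmt5 and 1, 1 and 5 in WT (log2 change 2.79, DESeq2 adjusted p 0.027, edgeR adjusted p 0.058). No junction read joined or skipped this exon in any library, and it matches no internal exon of RefSeq. The others were the 46-base exon of AT3G08840 described with the skipping junctions and one more exon of AT5G50310.

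The second comparison asked whether short exons were left out more often in prmt5. Skip percent is the number of junction reads that pass over the exon, as a percent of these reads plus the mean of the reads that join it on its left and right. Only junctions that end at the edges of the exon count as joining it, so reads that run on from an adjoining bin are left out. At least 1 skipping read was seen in 681 of the 5534 bins, and 575 of the 4903 whole exons (11.7%), so 4328 whole exons had none in any library. Pooled over all members, 0.731, 0.734 and 0.731% skipped in prmt5 and 0.779, 0.747 and 0.701% in WT. The groups overlapped (0.732 ± 0.0017% in prmt5 and 0.742 ± 0.039% in WT, SD, n = 3 each; two-sided exact permutation p 0.7). Of these 37839 skipping counts, 66.6% lay in the 155 bins that adjoin another bin and match no RefSeq internal exon, and 9.01% in the 476 that adjoin another bin and match one. Since running on from an adjoining bin is not counted, the pooled value over all members cannot decide whether short exons were left out more often. Over the short exons that match a RefSeq internal exon, a limit set after seeing the data, the pooled skip percent was 0.214 ± 0.0082% in prmt5 and 0.206 ± 0.0078% in WT, and the groups overlapped (exact permutation p 0.3).

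Among whole exons the prmt5 libraries were higher. They had 0.216, 0.218 and 0.210% skipping in prmt5 and 0.192, 0.190 and 0.184% in WT. The groups did not overlap (0.214 ± 0.0039% in prmt5 and 0.189 ± 0.0045% in WT, SD, n = 3 each; two-sided exact permutation p 0.1, the smallest that 3 against 3 libraries allow). Only 3 whole exons, 1 of AT1G04945 and 2 of AT4G22750, held 38.8% of the 9220 skipping counts of whole exons, and all 3 lie in loci that overlap another. Nearly all junction reads passed over these 3 in both genotypes, with group means of 98.7 to 100%. The 2 bins of AT4G22750 match no RefSeq internal exon and had 0 or 1 counts per library. Their skipping counts were the same apart from 197 and 196 in WT replicate 1. In the 4136 whole exons of loci with no overlap, a limit set after seeing the data, the pooled skip percent was 0.127 ± 0.0057% in prmt5 and 0.107 ± 0.0039% in WT, again without overlap of the groups (exact permutation p 0.1). Counting only junctions that run from the exon before to the exon after, the pooled value over all members was 0.0739 ± 0.0048% in prmt5 and 0.0571 ± 0.0044% in WT (exact permutation p 0.1).

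Longer whole exons also had higher skip percents in prmt5 than in WT. Whole exons of 26 to 50 bases had 0.208 ± 0.0061% skipping in prmt5 and 0.184 ± 0.0041% in WT (SD, n = 3 each), a ratio of 1.13. Whole exons of 51 to 75 bases had 0.0706 ± 0.00045% in prmt5 and 0.0532 ± 0.0013% in WT, a ratio of 1.33. The 311 whole exons of up to 25 bases overlapped between groups, with 0.265, 0.402 and 0.402% in prmt5 and 0.310, 0.268 and 0.270% in WT (exact permutation p 0.4). The ratio of short to longer whole exons on the log2 scale was 2.36 ± 0.037 in prmt5 and 2.52 ± 0.022 in WT, a difference of -0.16 with no overlap (exact permutation p 0.1). Over all bins that ratio was 3.04 ± 0.055 in prmt5 and 3.07 ± 0.073 in WT, a difference of -0.0249, and the groups overlapped (exact permutation p 0.7). Set against exons of 51 to 100 bases only, it was 2.73 ± 0.019 in prmt5 and 2.89 ± 0.103 in WT with no overlap (exact permutation p 0.1). Counting only exact skips, it was 1.74 ± 0.076 in prmt5 and 1.86 ± 0.079 in WT, and the groups overlapped (exact permutation p 0.2). In both genotypes short whole exons were thus skipped several times as often as longer ones.

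**Figure D3:**
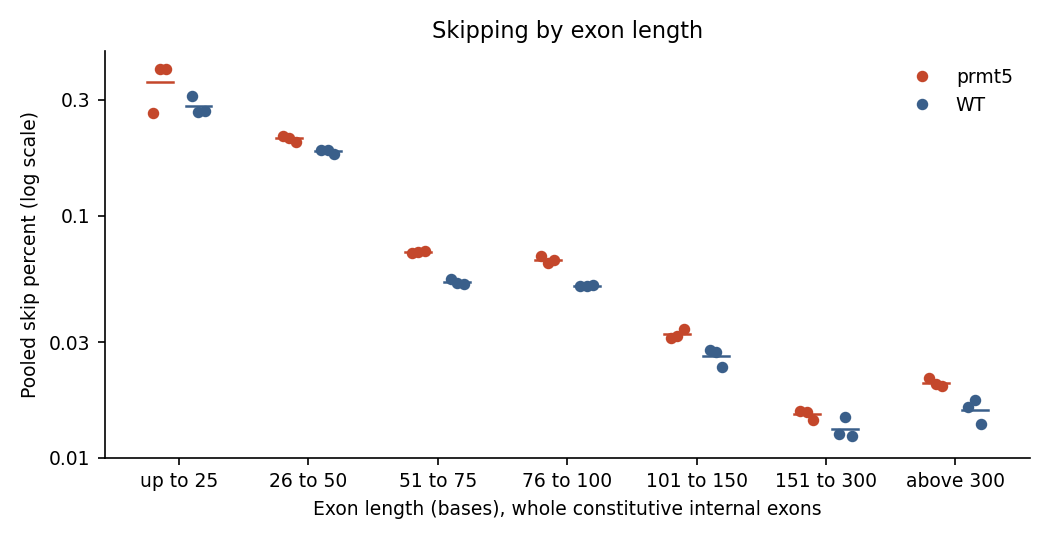
Pooled skip percent of whole constitutive internal exons by length class. The horizontal axis gives the exon length in bases and the vertical axis, on a log scale, the pooled skip percent, with a point for each library and a line at the group mean, prmt5 in red left of WT in blue. The means fall from class to class in both genotypes up to the next to longest, which ends at 300 bases, and are higher again above it, and the prmt5 points lie above the WT points in the class of 26 to 50 bases (0.208 ± 0.0061% in prmt5 and 0.184 ± 0.0041% in WT) and in every longer class but the next to longest, while those of up to 25 bases overlap.

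Single short exons were tested where at least 10 skipping reads were counted. Of 130 members tested in edgeR, 0 passed an adjusted p under 0.05, against 0.509% of the 4914 exon bins tested, and the smallest adjusted p was 0.096. At an unadjusted p under 0.05, 24 of the 130 members (18.5%) stood out, 15 higher and 9 lower in prmt5, against 5.62% of all bins tested. Skipping reads are part of the offset, so a bin at or near 100% skipping is held near a log2 change of 0. Such bins also enter the adjustment, and the median log2 change over all bins tested was -0.00015. Their number in each set is not given here, so the 2 shares are not a like comparison. A fit limited to whole exons, added after seeing the data, also called 0 of its 90 members, against 1.1% of the 1178 exons tested, with 21 members (23.3%) at an unadjusted p under 0.05, against 10.8% of these exons. DESeq2 called 3 members, each higher in prmt5, against 0.916% of all bins tested and 0.611% called higher.

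These 3 exons are shown because DESeq2 called their skipping. TAP38 is the thylakoid phosphatase that dephosphorylates the light-harvesting antenna, SBE2.1 is a starch branching enzyme, and AT3G08840 encodes a D-alanine-D-alanine ligase family protein.
TAP38, 47-base exon next to a retained-intron bin (chr4:13852232-13852318, minus strand): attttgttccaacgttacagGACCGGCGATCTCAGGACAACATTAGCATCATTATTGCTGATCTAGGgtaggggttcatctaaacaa
SBE2.1, 43-base exon (chr2:15265790-15265872, plus strand): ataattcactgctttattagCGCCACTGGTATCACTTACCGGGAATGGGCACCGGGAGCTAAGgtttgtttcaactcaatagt
AT3G08840, 46-base exon next to an alternative-acceptor bin (chr3:2680498-2680583, minus strand): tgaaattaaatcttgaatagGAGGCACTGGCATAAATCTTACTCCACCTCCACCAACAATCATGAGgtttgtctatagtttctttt
The TAP38 exon was passed over by 10, 8 and 14 reads in prmt5 and 0, 1 and 0 in WT, or 0.987, 1.15 and 1.24% in prmt5 and 0, 0.135 and 0% in WT. The groups did not overlap, with prmt5 higher at a ratio of 37.3 on a single WT count, with an exact 95% counting interval of 6.24 to 1520 (edgeR adjusted p 0.096, DESeq2 adjusted p 0.013). Annotated junctions join both of its ends, it matches a RefSeq internal exon, and its usage was not called (log2 change -0.07, SE 0.08). The SBE2.1 exon was skipped by 17, 17 and 26 reads in prmt5 and 3, 4 and 1 in WT, or 10.97, 13.9 and 11.7% in prmt5 and 1.63, 5.67 and 0.588% in WT. The groups did not overlap (12.2 ± 1.52% in prmt5 and 2.63 ± 2.69% in WT, SD, n = 3 each; log2 change 2.62, edgeR adjusted p 0.23, DESeq2 adjusted p 0.0027), and the locus overlaps AT2G36400, so its counts are uncertain. The AT3G08840 exon, which also matches a RefSeq internal exon, was passed over by 17, 14 and 19 reads in prmt5 and 10, 2 and 7 in WT. Reads that run into this exon from the adjoining alternative-acceptor bin do not count as joining it, so its skip percent is uncertain. Its skip percent was higher in all prmt5 libraries (47.2 ± 11.5% in prmt5 and 12.5 ± 6.96% in WT, SD, n = 3 each; log2 change 1.73, edgeR adjusted p 0.36, DESeq2 adjusted p 0.020), and its usage was lower, at 2.48 ± 0.242% of the gene count in prmt5 and 5.07 ± 1.30% in WT (log2 change -0.97, edgeR adjusted p 0.23, DESeq2 adjusted p 0.039).

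Some short whole exons were left out at a high rate in both genotypes without being annotated as skipped. The coding ones with the highest rate in WT, in loci with no overlap, were picked after their values were seen and are given as a description. A 46-base exon of emb1579, a gene needed for embryo development, skipped at 28.4 ± 1.04% in prmt5 and 22.3 ± 6.29% in WT (SD, n = 3 each). The 46-base exon of RRC1, an SR-like protein of red-light signalling, skipped at 14.5 ± 4.23% in prmt5 and 18.5 ± 4.92% in WT. The 49-base exon of FC2 (AFC2, a LAMMER kinase of SR splicing factors) skipped at 16.3, 19.8 and 32.2% in prmt5 and 15.03, 12.7 and 15.05% in WT. Every prmt5 library was above every WT library there, but the change was not called (log2 change 0.72, SE 0.34, edgeR adjusted p 1.00). A 41-base exon of the octanoyltransferase gene AT5G12240, an enzyme of lipoate synthesis, skipped at 4.57, 3.62 and 5.92% in prmt5 and 8.29, 10.3 and 8.41% in WT. Here every prmt5 library was below every WT library (log2 change -0.85, SE 0.19, edgeR adjusted p 0.48).

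The smallest exons printed above were kept in the transcripts of both genotypes. The 3-base exon of PBS2 had 94, 72 and 115 counts in prmt5 and 103, 40 and 102 in WT, or 13.0 ± 0.738% of the gene count in prmt5 and 11.8 ± 1.69% in WT (SD, n = 3 each; log2 change 0.11, SE 0.14, edgeR adjusted p 1.00). It was skipped by 3, 1 and 2 reads in prmt5 and 3, 0 and 1 in WT, so the groups overlapped in both measures. The 6-base exon of AT5G14030 stood at 15.6 ± 0.526% in prmt5 and 15.8 ± 1.57% in WT. No read passed over it in either genotype, which allows a skip percent of up to 0.154% in prmt5 and 0.136% in WT (3 counts over the pooled group, for counting error only). The 4-base exon of RecQl3 stood at 4.35 ± 1.13% in prmt5 and 3.75 ± 1.51% in WT, and the 5-base exon of AT1G02305 at 5.95 ± 0.592% in prmt5 and 6.21 ± 0.0996% in WT, with groups that overlapped in both. AT1G63290 and AT3G01850, related genes of an aldolase-type TIM barrel family, share the same 5 bases as an exon, used at 11.2 ± 1.43% and 8.59 ± 0.930% of the gene count in prmt5 and 10.4 ± 0.475% and 8.46 ± 0.625% in WT. Skipping of the exon in AT3G01850 was seen in 1, 2 and 1 reads in prmt5 and 6, 6 and 6 in WT, or 0.952, 2.08 and 0.608% in prmt5 and 5.15, 8.16 and 5.53% in WT. Each prmt5 library was below each WT library, without passing the threshold (log2 change -2.35, SE 0.44, edgeR adjusted p 0.23). NF-YB8 and NF-YB10 share the same 6-base exon, at 10.09 ± 2.22% and 11.7 ± 0.830% in prmt5 and 12.1 ± 2.09% and 11.4 ± 0.658% in WT.

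The invertase microexons did not differ in usage by the test. ATBETAFRUCT4, a vacuolar invertase that splits sucrose, had 289, 308 and 447 counts on its 9-base exon in prmt5 and 531, 193 and 547 in WT, or 4.26 ± 0.525% of the gene count in prmt5 and 4.08 ± 0.665% in WT (SD, n = 3 each; log2 change 0.04, SE 0.13). The corresponding exon of AT1G62660 stood at 4.89 ± 0.445% in prmt5 and 4.72 ± 0.768% in WT (log2 change 0.04, SE 0.12), and that of cwINV6 at 4.82 ± 1.17% in prmt5 and 5.90 ± 3.22% in WT (log2 change -0.21, SE 0.41). The exon of cwINV4 had no count in any library. Of 3 tested exons 0 were called by edgeR, with 0 at an unadjusted p under 0.05, and DESeq2 also called 0. Over the family 4 reads of 1769 skipped the exon in prmt5 and 2 of 2081 in WT. Of 4 tested introns next to these exons, 0 were called by edgeR, and 1 had an unadjusted p under 0.05, the one before the exon of ATBETAFRUCT4 (0.820 ± 0.135% of the gene count in prmt5 and 0.574 ± 0.176% in WT, SD, n = 3 each).

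The short exons of the AP2 family gave the same picture in usage. Of 21 tested, 0 were called by edgeR and 0 had an unadjusted p under 0.05, DESeq2 also called 0, with log2 changes from -0.17 to 0.53 and a median of 0.01. The 26-base and 31-base exons of AP2 stood at 8.02 ± 1.02% and 7.63 ± 0.866% of the gene count in prmt5 and 7.91 ± 1.73% and 7.59 ± 1.25% in WT (SD, n = 3 each). Those of TOE2 stood at 5.69 ± 0.811% and 5.61 ± 0.777% in prmt5 and 5.72 ± 0.181% and 5.37 ± 0.462% in WT. The largest change, 0.53 (SE 0.49) in AIL5, rested on 7, 16 and 15 counts in prmt5 and 17, 5 and 8 in WT. Over the family 4 reads of 5551 skipped a short exon in prmt5 and 1 of 4945 in WT.

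**Figure D4:**
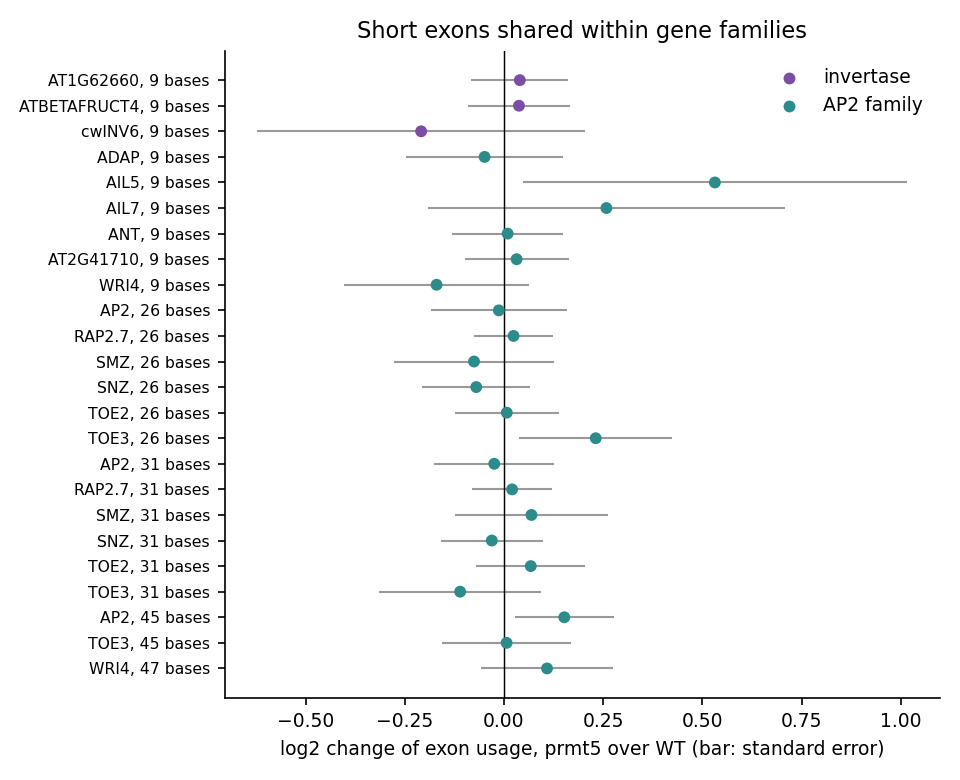
Change of usage of the short exons of 2 gene families. The horizontal axis is the log2 change of exon usage, prmt5 over WT, each point is an exon with its standard error as a bar, and the vertical axis lists the gene and exon length, invertases in purple and AP2 family genes in teal. The AP2 family points lie between -0.17 and 0.53, and no exon of either family passed the threshold.

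The third comparison concerned the introns that flank the short exons, since reads in an intron show where it was left in the RNA. Intron usage is the count of the intron as a percent of the count of its gene. Of 4766 flanking introns tested, 996 rose in prmt5 (20.9%; 21.6% of all 53291 introns tested) and 28 fell (0.587%; 0.514% of all), by edgeR at an adjusted p under 0.05. The median log2 change was 0.35 next to short exons and 0.37 over all introns. With the median of all introns removed, 551 of the flanking introns were raised (11.6%; 12.4% of all introns) and 180 lowered (3.78%; 3.54% of all). The introns upstream of short exons rose in 543 of 2466 cases (22%) and those downstream in 480 of 2478 (19.4%). Among other introns of the same loci 2978 of 13063 (22.8%) rose. Of 1717 short exons with both flanking introns tested, 133 had both raised, 253 only the upstream one, 232 only the downstream one and 1099 neither. The 891 tested short exons next to a raised intron had a median log2 change in usage of -0.02.

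Pooled over all flanking introns, the prmt5 libraries stood at 2.25, 2.17 and 2.06% of the gene counts and the WT libraries at 1.62, 1.78 and 1.64%. The groups did not overlap (2.16 ± 0.098% in prmt5 and 1.68 ± 0.090% in WT, SD, n = 3 each; exact permutation p 0.1). Next to whole exons the values were 1.62 ± 0.092% in prmt5 and 1.14 ± 0.066% in WT. The ratio of flanking introns to other introns of the same loci was 0.16 ± 0.01 in prmt5 and 0.20 ± 0.02 in WT on the log2 scale, a difference of -0.04. Its sign turned with the choice of exons: next to whole exons it was -0.23 ± 0.01 in prmt5 and -0.31 ± 0.01 in WT, a difference of 0.07.

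The 6 raised flanking introns with the smallest p are shown by their donors, the last 10 exon bases in capitals and the first 20 intron bases in lower case, because none of the 6 exons before them ends in G, the most common last base of an exon.
SULA (chr2:9112579-9112608, minus strand): TTCGTTCTCCgtatgcaaattttgtttttt
ZIF1 (chr5:4432827-4432856, plus strand): CTCTCCACTTgtaacaccttcttcgccttc
CA2 (chr5:4760864-4760893, plus strand): AGAAATACGAgtaatataaatattgtgctt
CA1 (chr3:196336-196365, minus strand): AGAAATACGAgtaatatatatttctatttc
AT1G63110 (chr1:23405014-23405043, plus strand): ATTCGCCGCCgtatctcctctctctttctc
AT5G19500 (chr5:6579944-6579973, plus strand): AAGTTGTTTCgtaatcatcctctcattctc
G was the last exon base before 59.7% of the raised flanking introns and 82.2% of those not raised, and over all introns before 64.5% of the raised and 83.4% of those not raised. The donor score, a sum of log2 odds over the last 3 exon and first 6 intron bases in which higher means closer to the usual donor, averaged 5.46 for raised flanking introns and 6.81 for the others tested. Over all introns it averaged 5.34 for the raised and 6.81 for those not raised.

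SULA is a plastid protein of the SulA family involved in chloroplast division. Its 100-base intron upstream of a 45-base exon (chr2:9112499-9112598) had 280, 213 and 358 counts in prmt5 and 7, 5 and 5 in WT, or 6.23, 6.15 and 6.97% of the gene count in prmt5 and 0.145, 0.163 and 0.0843% in WT. No WT library reached the lowest prmt5 library (log2 change 5.68, SE 0.23, edgeR adjusted p 3.2e-22). The intron on the other side of the same exon was not called (log2 change -0.24, adjusted p 0.69), nor was the exon itself (log2 change 0.18). ZIF1, a vacuolar transporter needed for zinc tolerance, had 603, 337 and 490 counts in prmt5 and 15, 16 and 26 in WT on the 252-base intron before its 41-base exon. That is 7.12 ± 0.233% of the gene count in prmt5 and 0.443 ± 0.144% in WT (SD, n = 3 each; log2 change 4.07, SE 0.18, edgeR adjusted p 5.0e-21), with no overlap of the groups.

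CA1 and CA2 are related beta carbonic anhydrases, which interconvert carbon dioxide and bicarbonate, and in both the intron before a 49-base exon rose. Their 49-base exons were identical at 42 positions and are shown with the donors above because intron usage before this exon rose in both genes.
CA2 (chr5:4760969-4761057, plus strand): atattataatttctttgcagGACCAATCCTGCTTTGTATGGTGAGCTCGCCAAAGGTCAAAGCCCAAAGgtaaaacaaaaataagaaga
CA1 (chr3:196187-196275, minus strand): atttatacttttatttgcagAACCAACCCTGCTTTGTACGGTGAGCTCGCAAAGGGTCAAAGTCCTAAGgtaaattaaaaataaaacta
The CA2 intron had 1719, 1429 and 2036 counts in prmt5 and 471, 313 and 649 in WT, or 2.00 ± 0.081% of the gene count in prmt5 and 0.592 ± 0.050% in WT (SD, n = 3 each; log2 change 1.76, SE 0.10, edgeR adjusted p 2.0e-17). The CA1 intron had 300, 286 and 368 counts in prmt5 and 35, 35 and 80 in WT, or 0.122 ± 0.0046% in prmt5 and 0.0182 ± 0.0053% in WT (SD, n = 3 each; log2 change 2.73, SE 0.17, edgeR adjusted p 1.3e-16). The groups did not overlap in either gene. The introns after the 49-base exons changed less, by 0.65 in CA2 (edgeR adjusted p 2.1e-04) and 0.36 in CA1 (edgeR adjusted p 0.023). The exons themselves were not called, at log2 changes of -0.02 in CA2 and 0.03 in CA1.

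The last of the 6 were in AT1G63110 and AT5G19500. AT1G63110 encodes the PIG-U subunit of the complex that attaches lipid anchors to proteins, and an 89-base stretch before its 48-base exon, annotated as a retained intron, had 106, 109 and 121 counts in prmt5 and 3, 1 and 4 in WT (6.16 ± 1.21% in prmt5 and 0.135 ± 0.047% in WT, SD, n = 3 each; log2 change 5.35, edgeR adjusted p 1.8e-16). AT5G19500, a tryptophan/tyrosine permease gene, had 150, 121 and 165 counts in prmt5 and 9, 6 and 12 in WT on the 88-base intron after its 50-base exon (2.37 ± 0.214% in prmt5 and 0.157 ± 0.014% in WT, SD, n = 3 each; log2 change 3.88, edgeR adjusted p 2.0e-16). In both the groups did not overlap, and the locus of AT5G19500 overlaps AT5G19510, so its counts are uncertain.

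Lowered flanking introns were fewer. The actin nucleation gene ARP2 had 14, 4 and 12 counts in prmt5 and 20, 16 and 28 in WT on the 121-base intron before its 50-base exon, or 0.996 ± 0.512% of the gene count in prmt5 and 4.02 ± 0.391% in WT (SD, n = 3 each; log2 change -1.97, SE 0.37, edgeR adjusted p 7.2e-05). As percents of the gene count the groups did not overlap. Set against library size the call was lost (adjusted p 0.053). The proteasome ATPase gene AT1G53780 had 2.18 ± 0.297% in prmt5 and 4.75 ± 0.516% in WT on an intron next to a 32-base exon (log2 change -1.14, edgeR adjusted p 2.7e-07), in a locus that overlaps AT1G53785. The other one was the intron of AT3G25840 next to the exon that has a copy elsewhere, at 0.318 ± 0.0873% in prmt5 and 2.12 ± 0.339% in WT (log2 change -2.77, edgeR adjusted p 3.0e-12).

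**Figure D5:**
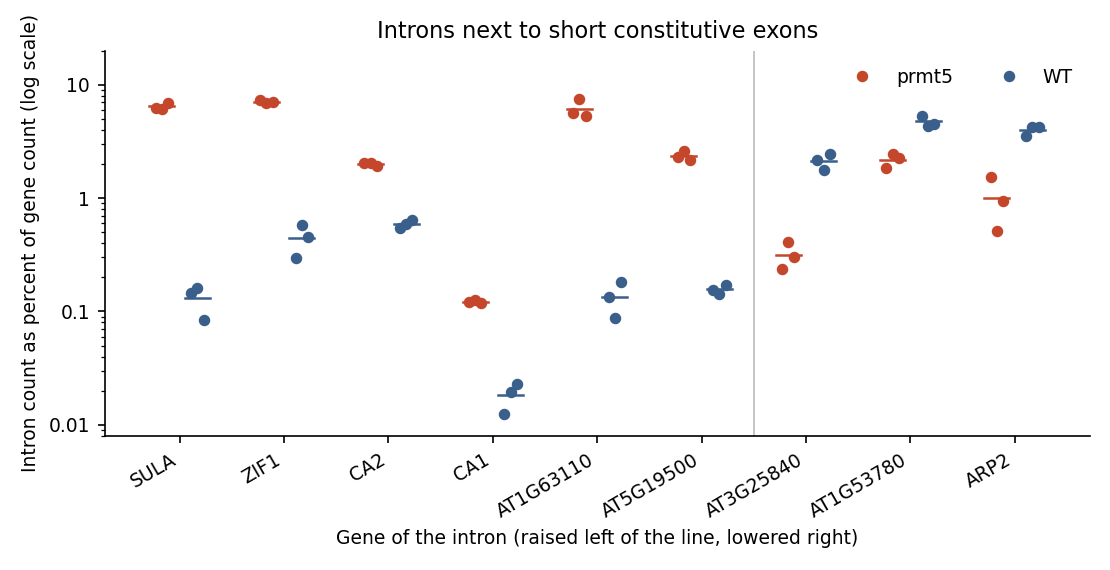
Introns next to short constitutive exons. The vertical axis, on a log scale, shows counts in the intron per gene count, in percent, with a point for each library and a line at the group mean, prmt5 in red left of WT in blue, and the horizontal axis lists the gene. The 6 introns left of the grey line rose in prmt5, with the widest gap in SULA (6.45 ± 0.451% in prmt5 and 0.131 ± 0.041% in WT), and the 3 right of it fell.

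In the AP2 family 5 of 25 tested introns next to short exons rose in prmt5, against 21.6% of all introns, and 0 fell. The 2 introns of SNZ that follow its 31-base and its 26-base exon stood at 9.25 ± 0.477% and 3.95 ± 0.138% of the gene count in prmt5 and 4.23 ± 0.612% and 2.28 ± 0.793% in WT (SD, n = 3 each; log2 changes 1.13 and 0.71, edgeR adjusted p 5.9e-07 and 0.013). The donor of the first reads gtgtaa, unlike those of the 31-base exons of AP2 and TOE2 printed above. Its donor score was 5.47, against 5.03 for the donor of the 31-base exon of AP2, whose intron was not called (log2 change -0.01). Whether the donors had a part in these changes was not tested. The intron after the 9-base exon of ADAP, with a donor score of 8.24, stood at 4.45 ± 0.914% in prmt5 and 1.75 ± 0.606% in WT (log2 change 1.36, edgeR adjusted p 5.9e-04). The remaining ones were before 45-base exons, in AP2 (log2 change 1.47, edgeR adjusted p 0.044) on 14, 3 and 14 counts in prmt5 and 4, 3 and 6 in WT with groups that overlapped, and in TOE3 (log2 change 1.36, edgeR adjusted p 0.033), whose locus overlaps AT5G67170. The usage of the exons beside them was not called.

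The fourth comparison asked whether the junctions that end at a short exon shifted to other splice sites. Junctions that share a donor or an acceptor were tested against each other in edgeR, and 551 tested junctions ended at 336 of the short exons. Of these 36 (6.53%) were called, against 5.9% of all 8106 junctions tested. They were 20 raised (3.18% of all were raised) and 16 lowered (2.71% of all) and touched 34 exons in 33 loci. Without WT replicate 3 there were 13 raised, and without prmt5 replicate 1 there were 7 lowered. Of the raised junctions 16 were unannotated and 4 annotated, and of the lowered ones 7 were unannotated and 9 annotated. Junction positions are the last base of the exon before and the first base of the exon after, in coordinates of the deposited table.

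In CA2 an unannotated junction into the 49-base exon, from 4760588 to 4760989 on chromosome 5, passed over the exon before it. It had 81, 53 and 128 counts in prmt5 and 2, 5 and 1 in WT, or 0.573 ± 0.119% of its cluster in prmt5 and 0.0254 ± 0.0295% in WT (SD, n = 3 each; log2 change 4.91, SE 0.38, edgeR adjusted p 7.2e-14). The lowest prmt5 library was far above the highest WT library. In CA1 an unannotated junction at the same edge spanned 182 bases, from 196255 to 196438 on chromosome 3, where the annotated one spans 100. It had 22, 19 and 35 counts in prmt5 and 0, 1 and 6 in WT, again without overlap (0.147 ± 0.0218% in prmt5 and 0.0118 ± 0.0129% in WT, SD, n = 3 each; log2 change 3.35, edgeR adjusted p 1.2e-05). In both genes these junctions ended at the short exon whose upstream intron also rose.

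Among the 6 loci named for their junctions, the largest shift in share was in AT2G04845, an acyl-CoA N-acyltransferase family gene. Its 39-base exon was joined by an annotated junction from 1702596 to 1702663 on chromosome 2 with 29, 23 and 41 counts in prmt5 and 7, 3 and 5 in WT, and by an annotated rival from 1702596 to 1702692 with 10, 8 and 13 counts in prmt5 and 57, 31 and 44 in WT. The shorter intron of 66 bases took 74.8 ± 0.956% of the cluster in prmt5 and 9.99 ± 1.07% in WT (SD, n = 3 each; log2 change 2.87, SE 0.37, edgeR adjusted p 6.3e-07). Which of the annotated donors before the 39-base exon was used most thus differed between the genotypes, in all libraries. The usage of the exon itself was not called (log2 change -0.23, SE 0.15).

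FC2 also showed a shift between annotated junctions. Its 27-base exon was joined over 985 bases, from 12756566 to 12757552 on chromosome 4, by 70, 64 and 100 reads in prmt5 and 42, 24 and 35 in WT, or 30.04 ± 1.83% of the cluster in prmt5 and 13.4 ± 2.23% in WT (SD, n = 3 each; log2 change 1.18, SE 0.21, edgeR adjusted p 9.5e-05). The rival over 178 bases had 56, 71 and 76 reads in prmt5 and 108, 68 and 137 in WT (log2 change -0.62, edgeR adjusted p 0.025). The groups did not overlap in either share of the cluster. The gene as a whole was higher in prmt5 (log2 change 0.64, edgeR adjusted p 2.6e-05).

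The remaining loci with the smallest p were PnsB4 and TAP38, both of the chloroplast. PnsB4, a subunit of the NDH complex, had an unannotated junction from 6460808 to 6461174 on chromosome 1 after its 42-base exon, with 28, 32 and 40 counts in prmt5 and 6, 6 and 5 in WT (2.13 ± 0.233% of the cluster in prmt5 and 0.260 ± 0.110% in WT, SD, n = 3 each; log2 change 3.12, edgeR adjusted p 8.4e-09), in a locus that overlaps AT1G18735. In TAP38 the junction that passes over the 47-base exon ends at a 33-base exon, and tested within its cluster it was called (0.568 ± 0.0649% in prmt5 and 0.0226 ± 0.0392% in WT, SD, n = 3 each; edgeR adjusted p 4.4e-05). Tested as skipping, the same reads did not pass the threshold in edgeR (adjusted p 0.096) but did in DESeq2 (adjusted p 0.013).

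Genes that hold short exons were often higher in prmt5. Of 3588 such genes tested, 1025 (28.6%) were higher and 384 (10.7%) lower by edgeR, against 17.9% and 15.4% of all 22509 genes tested. Their median log2 change was 0.08, and 0.01 over all genes. Without WT replicate 3, 254 were lower. In the AP2 family 10 of 17 tested genes were higher and 0 lower, among them the floral repressor SMZ at 12.3 ± 1.17 CPM in prmt5 and 6.49 ± 0.520 CPM in WT (SD, n = 3 each; log2 change 0.93, edgeR adjusted p 6.9e-05) and TOE2 at 48.3 ± 1.35 CPM in prmt5 and 31.4 ± 0.639 CPM in WT (log2 change 0.62, edgeR adjusted p 2.0e-05). In whole seedlings a change in the number of cells of a type and a change in RNA per cell cannot be told apart. Of the 8 invertase genes 6 were tested, 0 were higher, and CWINV5 was lower at 2.46 ± 0.211 CPM in prmt5 and 6.99 ± 0.378 CPM in WT (SD, n = 3 each; log2 change -1.5, edgeR adjusted p 8.0e-06), a gene without a short constitutive exon in the table. No test was made of whether genes with short exons differ from other genes, which may also differ in length and in number of introns.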

How the data were processed

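Counts of reads per gene, exon bin, intron and splice junction were used as the authors deposited them, in tables of 33602 genes, 158089 exon bins, 123235 introns and retained-intron bins and 186694 junctions, per the file headers. The submitters' processing notes name STAR and TAIR10. No source used here states the counting program, read length or strand setting, so overlapping loci are named as uncertain. Libraries were grouped by genotype from the labels, 3 prmt5 and 3 WT, and no column of per-sample values lacked a sample.

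Usage, intron and skipping tests used edgeR 4.0.16 (R 4.3.3; quasi-likelihood) with the gene count plus 0.5, or the skipping plus including reads, as the offset. Junctions were tested within clusters that share a splice site, and genes with TMM normalization. Filters were a mean of at least 5 counts per bin, intron or junction and 50 per gene, and at least 10 skipping counts with a mean denominator of at least 10. P-values were Benjamini-Hochberg adjusted over all features of a fit, and a call means an adjusted p under 0.05. Pooled values were compared by two-sided exact permutation over libraries, whose smallest p is 0.1. DESeq2 1.42.0, limma 3.58.1, other denominators, filters and exon sets, and leaving out each library were tried as alternatives. Each fit was tested on simulated counts. Python 3.11.15, scipy 1.17.1 and pandas 2.3.3 did the rest. Intervals and floors cover counting error only, since reads without molecular identifiers are not independent molecules.

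Gene symbols, coding regions and sequences came from RefSeq TAIR10.1, and the donor score was trained on 116518 introns. The exons, gene lists and tests were chosen with earlier results of these data known. Genes were named by a rule: members called in usage or skipping (at most 8 each), the 6 raised and 3 lowered flanking introns and the 6 members with a called junction of smallest p, the 5 shortest tested members, the 5 of highest WT skip percent and the members in the invertase and AP2 lists. No member was called in skipping. The 5 shortest and the 5 most skipped by that rule adjoin other bins and match no RefSeq internal exon, so whole exons chosen after their values were seen are described as well, as are members called only by DESeq2.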

Additional observations from a re-analysis of the deposited data

How the results depend on the processing

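The pooled skip percent of all short bins differed by -0.0105 percentage points, prmt5 minus WT. The difference lay between -0.0311 (without WT replicate 3) and 0.00799 (without WT replicate 1) when a library was left out. It turned positive with exact skips (0.0168), whole exons (0.0259), whole exons in loci without overlap (0.0208), whole exons without the 3 most skipped (0.0224) and exons that match a RefSeq internal exon (0.00797); the last 3 sets were chosen after seeing the data, and the cause was not tested. A median over exons was 0 in every library and gave no value. The log2 ratio of short to longer exons, with a difference of -0.0249, ranged from -0.0661 to 0.00405 with a library left out, positive without prmt5 replicate 3 (0.00405) and without WT replicate 2 (0.00368). It was -0.121 with exact skips, -0.159 against exons of 51 to 100 bases, -0.162 for whole exons, -0.196 for those without overlap and -0.241 for exons that match a RefSeq internal exon. The ratio of flanking to other introns, at -0.0446, turned to 0.0721 next to whole exons and 0.0197 next to those without overlap, a cause not tested, and stayed between -0.0538 and -0.0346 with a library left out. The pooled intron percent, with a difference of 0.48, lay between 0.435 and 0.532 with a library left out, at 0.484 next to whole exons and at 0.123 as the median over introns.

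The 4 short exons called in usage became 9 with DESeq2, 551 with TMM library size as denominator, 7 with diffSpliceDGE and 2 without AT5G50310, and 2 (without prmt5 replicate 3) to 6 (without WT replicate 2) with a library left out. The 47-base exon of AT5G50310 had a log2 change of -1.58 under the TMM library size. Over the named features and their alternatives, 193 values kept their call and 7 lost it, all of them in the 47-base and 43-base exons of AT5G50310 and the ARP2 intron. These features were picked for their call or small p in the main fits, so this count does not speak for the other features. Calls in skipping stayed at 0 except for 3 with DESeq2. Raised flanking introns (996) became 551 and lowered ones (28) became 180 with the median change removed. Lowered ones were 16 with DESeq2 and 45 with TMM library size. Junctions raised (20) and lowered (16) became 48 and 36 with limma voom, and raised ones became 13 without a filter. With a library left out, raised junctions ranged from 13 (without WT replicate 3) to 22, and lowered ones from 7 (without prmt5 replicate 1) to 14. They were 8 without WT replicate 3 or prmt5 replicate 2, and 10 without WT replicate 1 or prmt5 replicate 3. Lowered genes (384) ranged from 254 (without WT replicate 3) to 438.

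Libraries with the same replicate number did not deviate together (correlations of -0.203, -0.172 and -0.128), so the numbers were not taken to pair them. With the number as a replicate block, 3 short exons were called in usage (the 43-base exon of AT5G50310 lost its call, adjusted p 0.17), 0 in skipping, 933 flanking introns raised and 25 lowered, 16 junctions raised and 8 lowered, and 836 genes higher and 265 lower. The pooled differences under the block were -0.0105, -0.0249, 0.48 and -0.0446 (exact sign-flip p 0.75, 0.75, 0.25 and 0.25, with 0.25 the smallest that 3 pairs allow).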

Other observations

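Short bins of 1 or 2 bases that adjoin another bin and match no RefSeq internal exon were the smallest with enough counts to test, and none of the 5 was called in usage by edgeR. Their log2 changes were 0.78 in MDAR6, 0.16 in G3Pp5, 0.33 in PIL5, -0.77 in NUDT7 and 0.08 in AT5G35160. Of 2996 short bins with a mean of at least 50 reads in the skip denominator, 11 had a skip percent of 100 in WT, with no junction read joining them. Reads that run on from an adjoining bin do not count as joining, so for such bins this percent is not a rate of leaving out. The bin of AT1G63770 had 403, 100 and 437 counts in WT. The 5 named by the rule, in AT1G08110, AT1G63770, MDAR6, AT1G69840 and OPR3, all adjoin another bin and match no RefSeq internal exon. A 44-base exon of AT4G04750, a major facilitator superfamily gene, skipped at 15.8 ± 3.82% in prmt5 and 13.97 ± 4.62% in WT (SD, n = 3 each), with groups that overlapped.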
